A study of Mus musculus with 4 samples.

Results

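The myogenic regulatory factors examined here are the 7 genes Myod1, Myf5, Myf6, Myog, Pax3, Pax7 and Six4, of 21581 protein-coding genes with an annotated start site in GRCm39. They were chosen as transcription factors of the skeletal muscle lineage, a non-chondrocyte lineage of both limb and trunk. Their H3K27ac peak intervals were all those within 150 kb of a member's start site, which gave 40 of 40899 intervals in limb EGFP+ cells, 29 of 34360 in limb EGFP- cells, 28 of 36231 in trunk EGFP+ cells and 30 of 30716 in trunk EGFP- cells. An interval was assigned to a promoter where it overlapped a window reaching 2 kb upstream and 500 bp downstream from the start of a protein-coding transcript, and was called distal otherwise. Distances are from the start site to the peak summit, negative upstream.

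H3K27ac, a histone acetylation found at active promoters and enhancers, was mapped by ChIP-seq in E14.5 mouse fetuses. All fetuses carried the Col2a1-EGFP genotype on the G4 background and came by tetraploid aggregation from 1 homozygous male stem cell clone. EGFP with a minimal promoter sat upstream of Col2a1, so fluorescence follows that gene's regulation. Limbs, or trunks without internal organs, were pooled and sorted into an EGFP+ fraction enriched in chondrocytes and an EGFP- fraction holding all other cells, muscle among them. Each of the 4 populations had 1 library, so no difference between populations could be tested and all values below are descriptions of these libraries. The names of the lists place both limb libraries in one sequencing lane and both trunk libraries in another, and lane and tissue cannot be told apart. The peak names of the trunk EGFP- list carry a replicate number other than that of its label, and the label was used.

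Skeletal muscle of limbs and trunk arises from somite cells that express the paired-box factors Pax3 and Pax7. Together with homeobox proteins such as Six4, these factors act upstream of the basic helix-loop-helix proteins Myf5, Myod1 and Myf6, which commit cells to the muscle fate, and of Myog, which drives terminal differentiation. The helix-loop-helix members bind the E-box CANNTG as dimers with E proteins, with CAGCTG a preferred form, and Six4 and its relatives bind the MEF3 motif TCAGGTT.

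The sequences below lie under peaks that the results turn on. They are the strongest peaks of Myod1 and of Pax3, each found in a single list, the Myod1 peak nearest to its start, the promoter peak of Myog, the Pax7 region found in both EGFP- lists, and the lone peak of Myf5 and Myf6. Each is 201 bases of the plus strand of GRCm39, centred on a peak summit, and capitals mark each CANNTG.
Myod1 upstream chr7:46002871-46003071: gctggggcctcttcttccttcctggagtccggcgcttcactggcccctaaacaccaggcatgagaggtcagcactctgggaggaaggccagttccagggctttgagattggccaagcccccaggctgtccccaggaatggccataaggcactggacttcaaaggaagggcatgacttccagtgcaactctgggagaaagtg
Myod1 intron chr7:46026762-46026962: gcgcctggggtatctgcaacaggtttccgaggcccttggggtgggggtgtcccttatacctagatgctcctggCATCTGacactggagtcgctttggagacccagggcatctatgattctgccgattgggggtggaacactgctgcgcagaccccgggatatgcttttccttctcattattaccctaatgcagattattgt
Myog promoter chr1:134217251-134217451: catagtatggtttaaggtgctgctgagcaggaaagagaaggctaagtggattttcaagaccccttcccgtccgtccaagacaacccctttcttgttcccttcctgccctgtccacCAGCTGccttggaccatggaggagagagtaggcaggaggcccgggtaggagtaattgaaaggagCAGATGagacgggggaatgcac
Pax3 upstream chr1:78200683-78200883: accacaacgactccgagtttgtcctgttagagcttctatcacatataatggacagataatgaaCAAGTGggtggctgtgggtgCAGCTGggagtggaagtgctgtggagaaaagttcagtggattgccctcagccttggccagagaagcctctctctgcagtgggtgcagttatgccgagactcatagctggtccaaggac
Pax7 upstream chr4:139660725-139660925: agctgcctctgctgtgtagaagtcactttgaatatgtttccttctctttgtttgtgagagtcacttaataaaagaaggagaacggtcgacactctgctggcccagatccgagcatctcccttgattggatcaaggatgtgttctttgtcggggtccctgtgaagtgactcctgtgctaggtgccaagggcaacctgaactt
Myf5 and Myf6 downstream chr10:107267766-107267966: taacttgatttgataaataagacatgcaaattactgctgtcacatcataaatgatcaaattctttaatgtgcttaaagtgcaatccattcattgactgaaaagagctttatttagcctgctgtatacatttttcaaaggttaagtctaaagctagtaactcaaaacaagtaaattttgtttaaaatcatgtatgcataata
Both Myod1 windows came from trunk EGFP- cells, the Myog, Pax3 and Myf5 windows from limb EGFP+ cells, and the Pax7 window from limb EGFP- cells, where a trunk EGFP- interval overlapped it. The Myog promoter window held 2 CANNTG matches, of which 1 was CAGCTG, and the Pax3 window likewise held 2 with 1 CAGCTG. The upstream Myod1 window and the Myf5 window held no CANNTG. The Pax7 window held 1 TCAGGTT, counted on either strand and not capitalised. Over the 11 windows at the strongest distal regions of the members, up to 2 regions a gene, 6 held CANNTG, 1 held CAGCTG and 1 held TCAGGTT. Among all distal summit windows of the same length, 63.6% to 65.2% in the 4 lists held CANNTG, 13.0% to 16.1% held CAGCTG, which is itself a CANNTG, and 2.87% to 3.05% held TCAGGTT. A match is a run of letters and was not tested as a binding site.

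Peaks at the start sites of the members were few. In limb EGFP+ cells, 2 of the 7 members, Myog and Six4, had a peak in their promoter window, against 54.4% of all protein-coding genes. In limb EGFP- cells 0 of the 7 had one, against 51.6% of genes. In each of the trunk fractions it was 1 of 7, Six4 each time, against 52.6% of genes in EGFP+ and 52.7% in EGFP- cells. Myod1, Myf5, Myf6, Pax3 and Pax7, 5 of the 7 members, had a promoter peak in no list, as did 41.3% of all genes. Both members marked in limb EGFP+ cells lacked a peak in the window in limb EGFP- cells, a pattern held by 4.83% of genes. For Six4 this rested on where the window ends, since a limb EGFP- peak of 38 reads began 0.888 kb inside the gene. None of the 7 had the opposite pattern, a peak in the EGFP- fraction and none in the EGFP+ fraction, which 2.02% of genes showed in limb and 3.31% in trunk, and none was marked in trunk EGFP+ cells alone of the trunk fractions, as 3.22% of genes were. In bulk chromatin, fewer cells of a type and less acetylation per cell cannot be told apart, and the EGFP- fraction is a mixture.

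An absent peak does not show absent acetylation. The fold and the −log10 p that the peak caller gives at a summit fix the number of extended reads there. At the lowest local background of each library, 1.49 to 1.83 reads, a peak needed at least 7 reads, or 8 in trunk EGFP- cells. Where the local background was higher, more reads were needed. In trunk EGFP- cells at −60.8 kb from the Myod1 start, 14 reads over a background of 4.84 gave a −log10 p of 3.79. All 10 chondrocyte markers examined, Col2a1 and Acan among them, had promoter peaks in both EGFP+ lists, against 4 in limb EGFP- and 3 in trunk EGFP- cells. Of 10 skeletal muscle markers, 1 was marked in limb EGFP+, 2 in limb EGFP-, 2 in trunk EGFP+ and 3 in trunk EGFP- cells. Mylpf, a fast myosin light chain, was the marker found in all 4 lists, while Acta1, Actc1, Ttn, Myl1 and the myosin heavy chains Myh3 and Myh8 were in none. Of all genes, 51.6% in limb EGFP- and 52.7% in trunk EGFP- cells had a promoter peak. Thus, these muscle markers, like the members, mostly lacked promoter peaks in the EGFP- lists that by design hold the muscle cells. The lack was not particular to muscle. In each EGFP- list, 0 of 5 epithelium, 0 of 5 blood, 1 of 5 endothelium and 2 of 4 smooth muscle markers were marked.

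**Figure D1:**
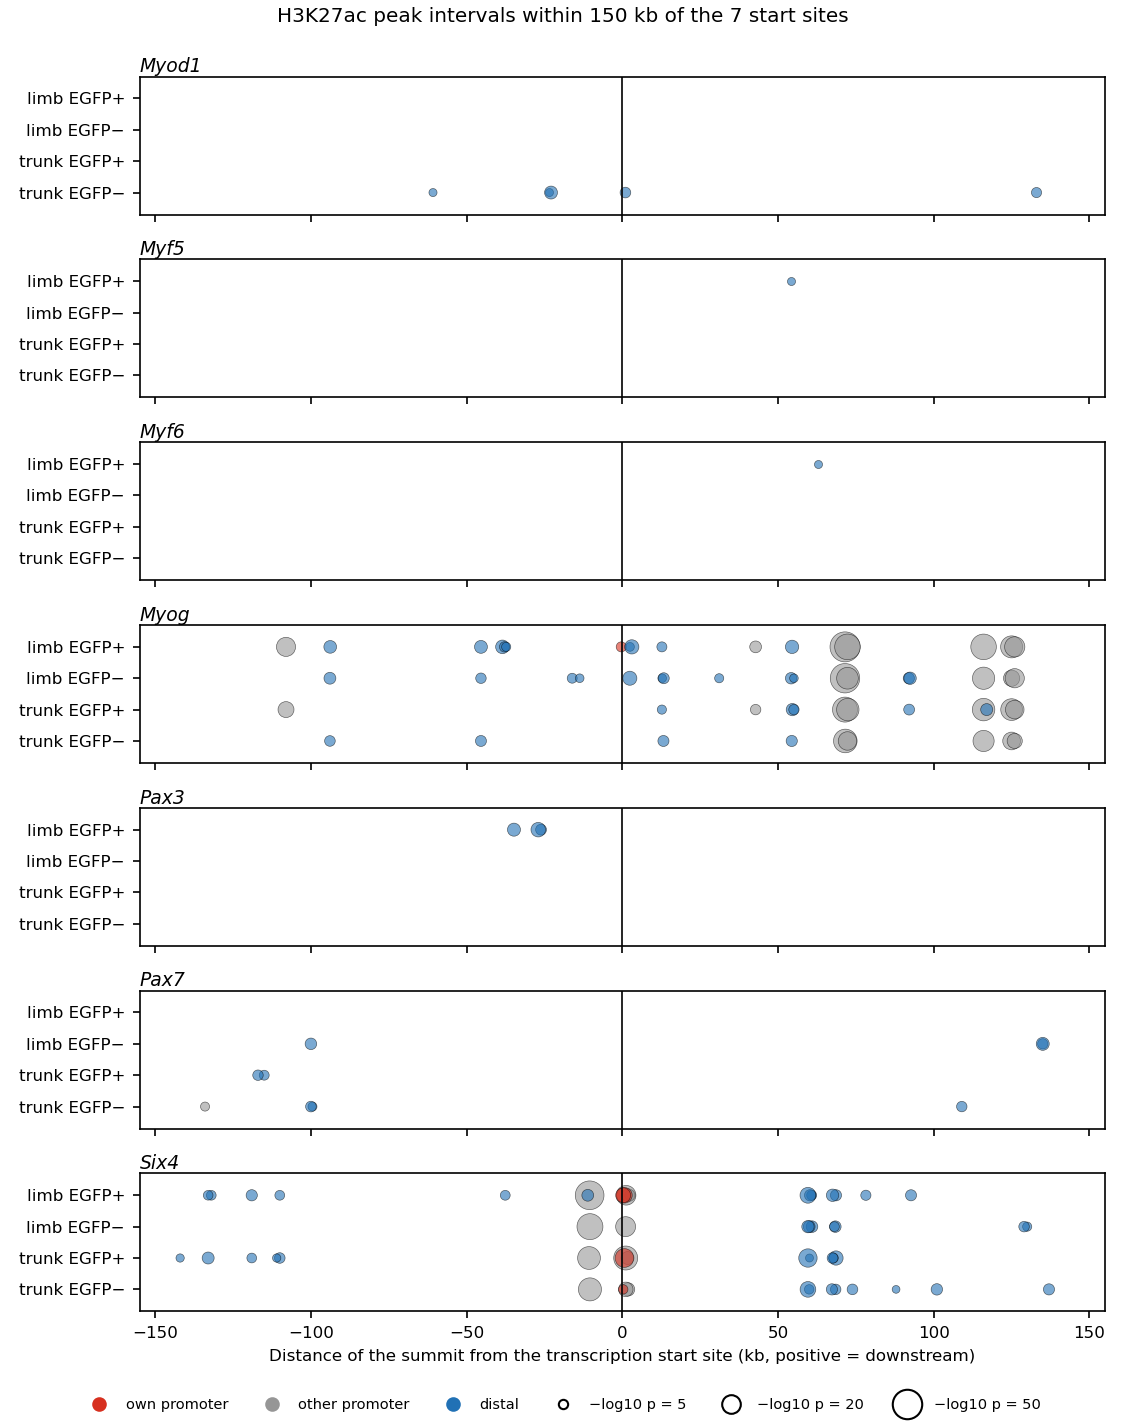
Peak intervals around each member's start site, with 1 row per list; the x axis is the distance of the summit from the start site in kb, colour gives the class of interval, and point area grows with −log10 p. Intervals crowd the Myog and Six4 windows in every list, while Myod1 has points in trunk EGFP- cells alone and Pax3 in limb EGFP+ cells alone.

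Away from promoters, the 7 windows held 26 distal intervals in limb EGFP+, 22 in limb EGFP-, 17 in trunk EGFP+ and 20 in trunk EGFP- cells, each interval being counted once. At least 1 distal interval was found for 5 of the 7 members in limb EGFP+ cells, for 3 in limb EGFP- cells, for 3 in trunk EGFP+ cells and for 4 in trunk EGFP- cells, where 72.1%, 72.2%, 71.3% and 68.4% of all genes had one. Most of the intervals belonged to Myog and Six4. Without these genes the counts were 4, 3, 2 and 8 in the same order, the most in trunk EGFP- cells, the shortest of the 4 lists. This order rested on weak peaks, since with a −log10 q of at least 5 the counts were 2, 2, 0 and 1.

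The distal intervals were similar in strength to distal intervals elsewhere. Their median −log10 p was 7.17 in limb EGFP+, 7.11 in limb EGFP-, 6.34 in trunk EGFP+ and 6.57 in trunk EGFP- cells, beside 7.27, 6.78, 6.80 and 6.59 over all distal intervals. Their median width was 336.5, 258, 298 and 307.5 bp, beside 331, 294, 324 and 303 bp. A median of 15.5 to 17.5 reads lay under their summits, beside 16 to 18 over all distal intervals. Ranked within the complete list, promoters included, 5 of 26 in limb EGFP+, 2 of 22 in limb EGFP-, 2 of 17 in trunk EGFP+ and 1 of 20 in trunk EGFP- cells reached the upper 50%. Distal intervals as a whole also ranked low. Intervals ranked at 49.0% to 49.9% of the 4 lists had −log10 p of 9.69 to 10.3, above the median of all distal intervals in each list. The share of all distal intervals in the upper 50% was not computed, so these counts do not set the member intervals apart.

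Of the 26 limb EGFP+ intervals, 15 (57.7%) overlapped no limb EGFP- interval, beside 68.5% of all distal limb EGFP+ intervals. In the reverse direction 12 of 22 (54.5%) limb EGFP- intervals had no EGFP+ counterpart, beside 56.6%. In trunk it was 12 of 17 (70.6%) EGFP+ intervals, beside 69.1%, and 15 of 20 (75.0%) EGFP- intervals, beside 57.3%. The trunk EGFP- value, the one farthest above its background, included the 5 intervals of Myod1. Merged within 500 bp, the intervals of 1 fraction gave 12 EGFP+ and 9 EGFP- regions in limb and 12 EGFP+ and 13 EGFP- regions in trunk.

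Joined across lists where they overlapped, directly or through another interval, the intervals made 52 distal regions, of 43885 in the genome. The 6 found in all 4 lists (11.5%, beside 8.67% of all distal regions) belonged to Myog or Six4. Limb EGFP+ cells alone had 13 regions (25.0%, beside 21.5%), limb EGFP- cells alone 7 (13.5%, beside 16.2%), trunk EGFP+ cells alone 5 (9.62%, beside 14.6%) and trunk EGFP- cells alone 11 (21.2%, beside 11.4%). Only distal intervals were joined, so a region counted for 1 list alone could overlap promoter intervals of other lists. The limb EGFP+ region at −11.1 kb from Six4 was overlapped by such intervals in limb EGFP-, trunk EGFP+ and trunk EGFP- cells. The EGFP+ fractions shared 3 regions found in neither EGFP- list, all near Six4 (5.77%, beside 10.6%). The EGFP- fractions shared 1 region found in neither EGFP+ list, near Pax7 (1.92%, beside 4.68%).

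**Figure D2:**
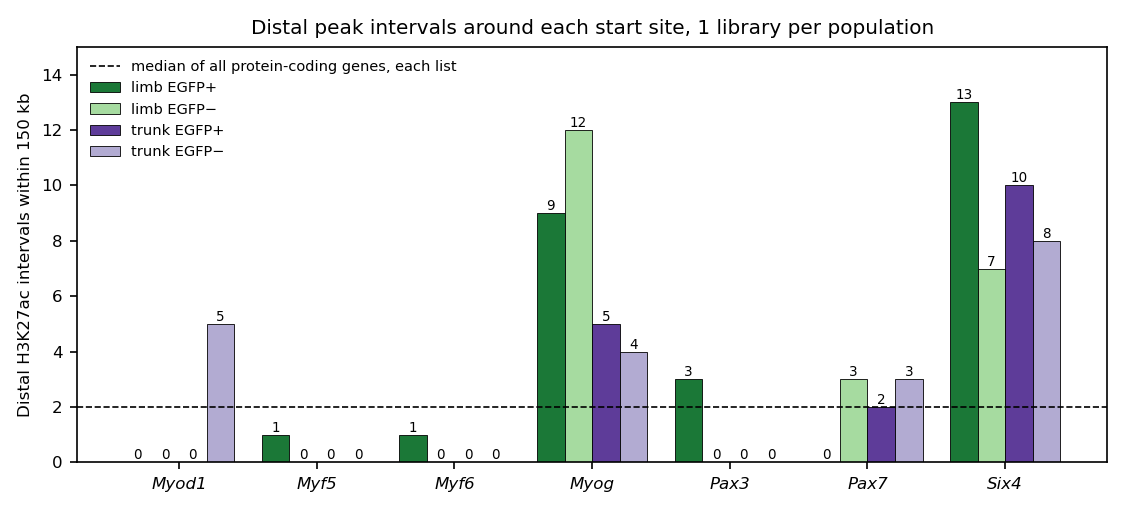
Number of distal intervals within 150 kb of each start site (y axis) for each member (x axis), with 1 bar per list and no error bars because each population had 1 library. The dashed line is the median of 2 over all protein-coding genes, which Myog and Six4 exceed in every list, Pax7 in both EGFP- lists, Myod1 in trunk EGFP- cells alone and Pax3 in limb EGFP+ cells alone.

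Pax3, which marks muscle progenitors migrating into the limb as well as neural crest and dorsal neural tube, lies at chr1:78077904-78173771 on the minus strand. It had 3 distal intervals in limb EGFP+ cells and 0 in limb EGFP-, trunk EGFP+ and trunk EGFP- cells. All 3 were intergenic and upstream of the gene. The strongest, at chr1:78200671-78200929 and −27.0 kb, had 24 reads at its summit (95% exact Poisson interval 15.4 to 35.7, counting error only) and a −log10 p of 12.2, in the top 43.7% of its list. The second, at −34.8 kb, had 19 reads and a −log10 p of 9.84, and the third, at −26.1 kb, had 18 reads and a −log10 p of 6.81. In the other lists the nearest interval to the start lay 180 kb away in limb EGFP-, 251 kb in trunk EGFP+ and 291 kb in trunk EGFP- cells. The peaks near this muscle and neural crest gene were thus confined to the EGFP+ list of the limb among the 4 lists. By RNA-seq, which was not used here, the paper reports high expression of Pax3, Myog, Myod1 and Myf6 in EGFP- cells. Peaks in an EGFP+ list alone therefore do not place the expression of Pax3 or Myog in that fraction.

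The 5 neural and neural crest markers examined did not follow this pattern as a set. Of them, 2 were marked at their promoters in limb EGFP+, 1 in limb EGFP-, 1 in trunk EGFP+ and 2 in trunk EGFP- cells. Sox10, a neural crest factor, had a promoter peak in limb EGFP+ cells alone (−log10 p 7.89, 19 reads). Of all genes, 4.83% had a promoter peak in limb EGFP+ and not in limb EGFP- cells. Elavl4 was marked in all 4 lists, Tubb3 in trunk EGFP- cells alone, and Sox2 and Stmn2 in no list. The part of such cells in the Pax3 peaks was not tested.

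Pax7, the factor of fetal muscle progenitors and of the satellite cells that later repair muscle, lies at chr4:139464373-139560839 on the minus strand. It had 0 distal intervals in limb EGFP+, 3 in limb EGFP-, 2 in trunk EGFP+ and 3 in trunk EGFP- cells. The strongest was in limb EGFP- cells at chr4:139425666-139425965, 135 kb downstream and intergenic, with 23 reads and a −log10 p of 9.76. A region at chr4:139660715-139661223, at −100 kb in an exon of the long non-coding gene Gm13028, was shared by limb EGFP- cells (15 reads, −log10 p 7.74) and trunk EGFP- cells (18 reads, −log10 p 6.58). This was the region common to both EGFP- fractions and absent from both EGFP+ lists. The trunk EGFP+ pair, at −115 kb and −117 kb, had 16 reads each and −log10 p of 5.69 and 6.34. No interval of any list lay nearer than 99.3 kb to the Pax7 start.

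Six4, a homeobox factor that acts with Eya co-activators on myogenic genes and is also expressed outside muscle, lies at chr12:73146383-73160230 on the minus strand. It was the member with the most distal intervals in every list but limb EGFP-, and its promoter had the most reads. The promoter peak had 52 reads in trunk EGFP+ cells (interval 38.8 to 68.2, −log10 p 20.1, fold over local background 4.64). In limb EGFP+ cells there were 2 intervals, with 44 reads (32.0 to 59.1, −log10 p 14.0) and 42 reads (30.3 to 56.8, −log10 p 12.9). In trunk EGFP- cells the peak had 20 reads (12.2 to 30.9), with a −log10 p of 5.12. The intervals of the EGFP+ summits did not overlap with that of trunk EGFP- cells except for the limb summit of 42 reads, whose lower bound of 30.3 met an upper bound of 30.9. They cover counting error only, and the difference was not tested. The summits also differed in place. Those of 44 and 52 reads lay 0.668 kb and 0.664 kb downstream of the start, and that of trunk EGFP- cells 0.28 kb. The local background was also higher in the EGFP+ lists, at 10.4 to 10.9 reads against 6.70 in trunk EGFP- cells.

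In limb EGFP- cells Six4 had no interval inside the promoter window, but the nearest one began 0.888 kb downstream of the start, within the gene, at chr12:73158864-73159342. It had 38 reads and a −log10 p of 22.9 and was assigned to a promoter window of Mnat1, which overlaps there. Intervals at the same place were found in limb EGFP+ (56 reads), trunk EGFP+ (69 reads) and trunk EGFP- cells (32 reads). Every list therefore had a peak in the 5′ part of Six4, and the absence at the promoter in limb EGFP- cells rests on where the window ends. With a window of 2 kb on each side of the start, a choice made after seeing the data, Six4 was marked in all 4 lists, and the members marked were 2, 1, 1 and 2 in limb EGFP+, limb EGFP-, trunk EGFP+ and trunk EGFP- cells. Of all genes, 55.6%, 53.2%, 54.0% and 54.2% were marked by this window.

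Six4 had 13 distal intervals in limb EGFP+, 7 in limb EGFP-, 10 in trunk EGFP+ and 8 in trunk EGFP- cells, more than or as many as 95.2% of genes when added over the lists. The 3 strongest distal regions of the window lay downstream of the start and were found in all 4 lists. Upstream, a weaker region at −133 kb, in an intron of Mnat1, was shared by limb EGFP+ (12 reads) and trunk EGFP+ cells (21 reads) alone. No interval classed as distal upstream of Six4 came from an EGFP- list, which rests in part on the class. The limb EGFP+ distal interval at −11.1 kb was overlapped by intervals of limb EGFP- (53 reads) and trunk EGFP- cells (46 reads). These reached a promoter window of Mnat1 and so were not counted as distal.

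Myf5, the earliest of the 4 helix-loop-helix members in the embryo, lies at chr10:107318769-107321995, and Myf6, the member of late differentiation also called Mrf4, at chr10:107328712-107330656, both on the minus strand with starts 8.66 kb apart. The pair shared 1 distal interval in limb EGFP+ cells and had 0 in limb EGFP-, trunk EGFP+ and trunk EGFP- cells. This interval, at chr10:107267753-107267984 and 54.1 kb downstream of Myf5, had 7 reads (2.81 to 14.4) and a −log10 p of 3.77, in the top 98.4% of its list. It was thus among the weakest peaks called, at the lowest number of reads that the caller accepted in that library. In the other lists the nearest interval to Myf5 lay 362 kb (limb EGFP-), 384 kb (trunk EGFP+) and 177 kb (trunk EGFP-) away. Over the 4 lists together, 22.4% of genes had no more distal intervals than either gene, and 11.2% (2417 genes) had no interval of any kind within 150 kb.

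Myod1, which with Myf5 commits cells to the muscle fate, lies at chr7:46025870-46028526 on the plus strand. It had 5 distal intervals in trunk EGFP- cells and 0 in limb EGFP+, limb EGFP- and trunk EGFP+ cells, where the nearest interval lay 263 kb, 248 kb and 231 kb from the start. In trunk EGFP- cells, 86.0% of genes had no more than this. Of the 7 members it was the one whose intervals all came from 1 EGFP- list.

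The strongest Myod1 interval, at chr7:46002874-46003076 and −22.9 kb in intergenic sequence, had 18 reads (10.7 to 28.4) and a −log10 p of 9.69, in the top 50.8% of the list. A weaker one beside it, at −23.4 kb, had 10 reads and a −log10 p of 3.76. As background, Myod1 is known to be governed by a core enhancer far upstream and a regulatory region nearer the promoter, and whether either interval matches the core enhancer was not tested. The second in strength, at chr7:46026731-46027058, lay in an intron of Myod1 itself, from 0.861 kb downstream of the start, and had 13 reads (6.92 to 22.2) and a −log10 p of 6.58. It fell just beyond the promoter window and was counted at the start with the window of 2 kb on each side. The others lay at −60.8 kb (14 reads) and 133 kb downstream in an intron of Sergef (11 reads).

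**Figure D3:**
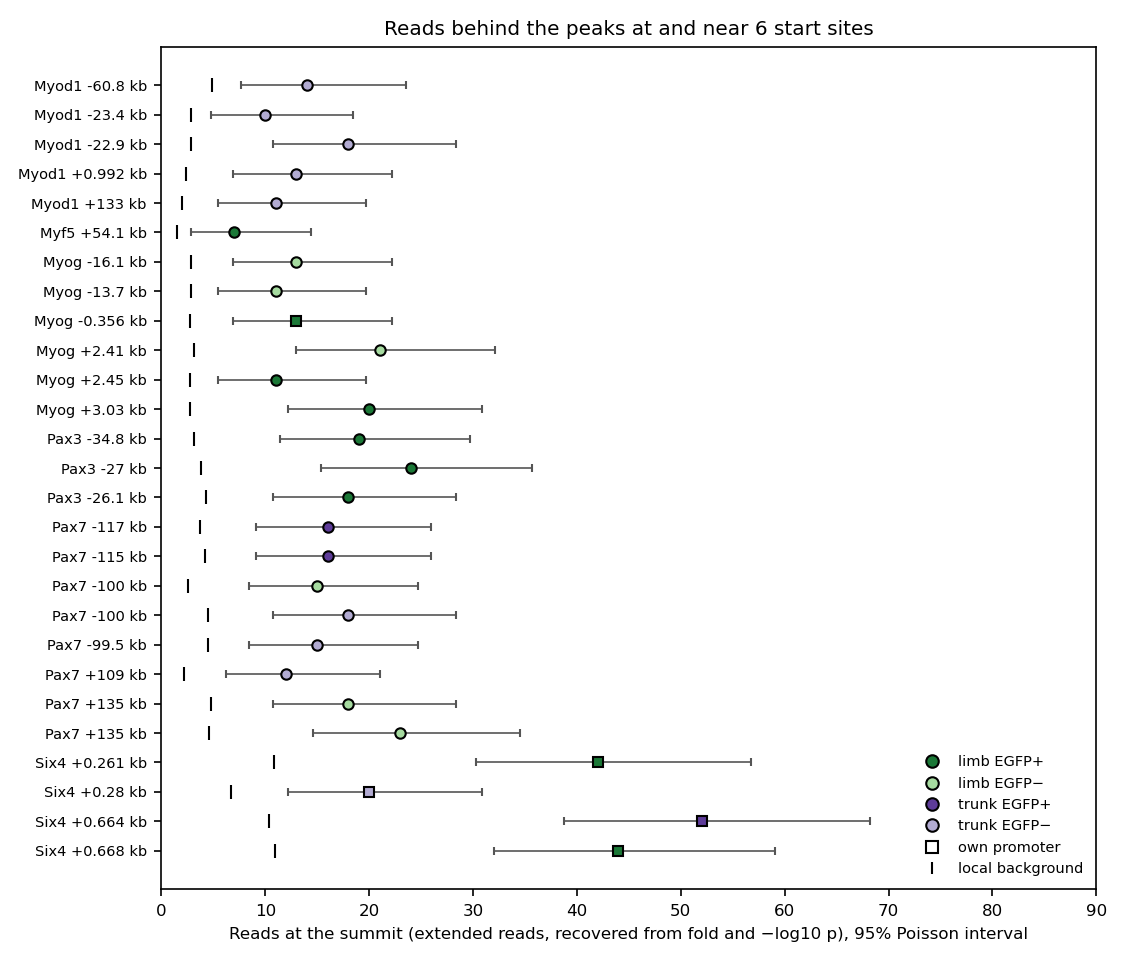
Extended reads at the summit (x axis, with 95% exact Poisson intervals) of the promoter peaks of Myog and Six4 and of the distal peaks of Myod1, Myf5, Pax3 and Pax7 and those near Myog, listed on the y axis by gene and distance from the start. Ticks give the local background, and the distal summits shown hold 7 to 24 reads, against 42 to 52 for Six4 in the EGFP+ lists.

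Myog, the factor of terminal muscle differentiation, lies at chr1:134217707-134220287 on the plus strand and was the one helix-loop-helix member with a promoter peak. In limb EGFP+ cells this peak, at chr1:134217186-134217396 in an intron of the overlapping long non-coding gene Gm32221, had 13 reads (6.92 to 22.2) over a local background of 2.80, a fold of 3.68 and a −log10 p of 5.81, in the top 81.1% of the list. Limb EGFP-, trunk EGFP+ and trunk EGFP- cells had no peak there. The promoter peak of this muscle gene was therefore a weak one in the EGFP+ fraction of the limb.

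The 3′ end of Myog was acetylated in both limb fractions. At chr1:134219966-134220353, within the 3′ UTR and just past it, limb EGFP- cells had 21 reads (13.0 to 32.1) and a −log10 p of 11.4, the strongest distal peak near any member in that list, and limb EGFP+ cells had 11 reads (5.49 to 19.7) and a −log10 p of 4.52. These counting intervals overlapped. At 3.03 kb downstream of the start, limb EGFP+ cells alone had a second interval with 20 reads and a −log10 p of 11.7. In trunk EGFP+ and trunk EGFP- cells no interval lay nearer to the start than 12.6 kb and 13.0 kb. Peaks at and just past Myog were thus found in the limb lists alone.

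Myog had 9 distal intervals in limb EGFP+, 12 in limb EGFP-, 5 in trunk EGFP+ and 4 in trunk EGFP- cells, and 91.0% of genes had no more over the 4 lists. Regions 13.2 kb and 54.5 kb downstream were in all 4 lists, with 11 to 16 and 16 to 19 reads. In the first, the trunk EGFP- interval overlapped neither EGFP+ interval and was joined to them through limb EGFP- intervals. Limb EGFP- cells alone had intervals at −16.1 kb and −13.7 kb, in Gm32221, with 13 and 11 reads. Limb EGFP+ cells alone had 3 intervals between −38.5 kb and −37.3 kb, the strongest with 19 reads and a −log10 p of 10.7. The window is gene-dense. It holds the promoters of Tmem183a, Cyb5r1 and Adipor1, marked in all 4 lists with up to 85 reads. The promoters of Chi3l1 and Ppfia4 were marked in both EGFP+ lists alone. Chi3l1, a chitinase-like protein also made by chondrocytes, had 42 reads in limb and 30 in trunk, and Ppfia4 had 15 and 16. Which gene a distal peak acts on was not tested.

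The other genes of the myogenic pathway were read at their promoters in the same way. Among 14 upstream factors, 5 were marked in limb EGFP+, 6 in limb EGFP-, 4 in trunk EGFP+ and 9 in trunk EGFP- cells. Of all genes, 54.4%, 51.6%, 52.6% and 52.7% were marked in the same order, and 3.31% were marked in trunk EGFP- and not trunk EGFP+ cells. The 3 marked in trunk EGFP- cells alone were Lbx1, a homeobox factor of migrating limb muscle progenitors (12 reads, −log10 p 4.65), Dmrt2, a factor of the dermomyotome (22 reads, 8.77), and Eya2, a co-activator of Six4 and its relatives (16 reads, 5.83). Met, the receptor needed for that migration, was marked in both EGFP- lists, with 13 reads in limb and 14 in trunk, and in neither EGFP+ list. Eya1, another such co-activator, had 11 reads in limb EGFP+, 17 in limb EGFP- and 29 in trunk EGFP- cells and no peak in trunk EGFP+ cells. Thus, Lbx1 and Met, known for muscle cells that enter the limb, had their peaks in the trunk EGFP- list, and in the limb EGFP- list Met but not Lbx1 did.

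Partners and inhibitors of the helix-loop-helix members, 13 genes that include the E proteins Tcf3, Tcf4 and Tcf12, the Mef2 factors and the Id proteins, were all marked in all 4 lists. Each list marked 51.6% to 54.4% of all genes, and the share of all genes marked in all 4 was not computed. Their read numbers were high. Tcf3 had 76, 79, 64 and 66 reads and Mef2a 124, 122, 80 and 101 in limb EGFP+, limb EGFP-, trunk EGFP+ and trunk EGFP- cells. Mef2c, which has roles in muscle and in chondrocyte hypertrophy, had 42, 35, 37 and 17. These genes are used by many cell types.

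Of 17 target, fusion and synapse genes, 0 were marked in limb EGFP+, 3 in limb EGFP-, 2 in trunk EGFP+ and 4 in trunk EGFP- cells. The shares of all genes were 54.4%, 51.6%, 52.6% and 52.7%. Chrnb1, a subunit of the acetylcholine receptor of muscle, had the most reads, with 23 in limb EGFP- and 40 in trunk EGFP- cells (−log10 p 10.5 and 19.4) and no peak in either EGFP+ list. Chrna1, another subunit, and Rapsn, which clusters the receptor, were marked in trunk EGFP- cells alone, with 15 and 16 reads. Chrng, the fetal subunit, was marked in limb EGFP- cells alone with 11 reads. Musk, the receptor kinase of the synapse, had 13 reads in limb EGFP-, 8 in trunk EGFP+ and 16 in trunk EGFP- cells. The fusion genes Mymk and Mymx and the muscle creatine kinase Ckm had no promoter peak in any list. With the window of 2 kb on each side, the counts of these targets became 2, 6, 2 and 6 in limb EGFP+, limb EGFP-, trunk EGFP+ and trunk EGFP- cells, and those of the upstream factors 5, 6, 4 and 10.

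Over the 44 genes of these lists, 18, 22, 19 and 26 were marked in limb EGFP+, limb EGFP-, trunk EGFP+ and trunk EGFP- cells, beside 54.4%, 51.6%, 52.6% and 52.7% of all genes. In limb, 4 were marked in EGFP- and not EGFP+ cells, a pattern of 2.02% of all genes, and 0 the other way, as 4.83% of all genes were. In trunk, 8 were marked in EGFP- and not EGFP+ cells, a pattern of 3.31% of all genes, and 1, Fgfr4, the other way, as 3.22% of all genes were. Of the members, Myog and Six4 were marked in 1 fraction of a tissue, limb EGFP+ cells. With the window of 2 kb on each side, Six4 was marked in all 4 lists, Myog still in limb EGFP+ cells alone, and Myod1 in trunk EGFP- and not trunk EGFP+ cells. Tek, an endothelial marker, and the smooth muscle marker Acta2 were also marked in both EGFP- lists and in neither EGFP+ list, and their part in the counts was not tested.

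**Figure D4:**
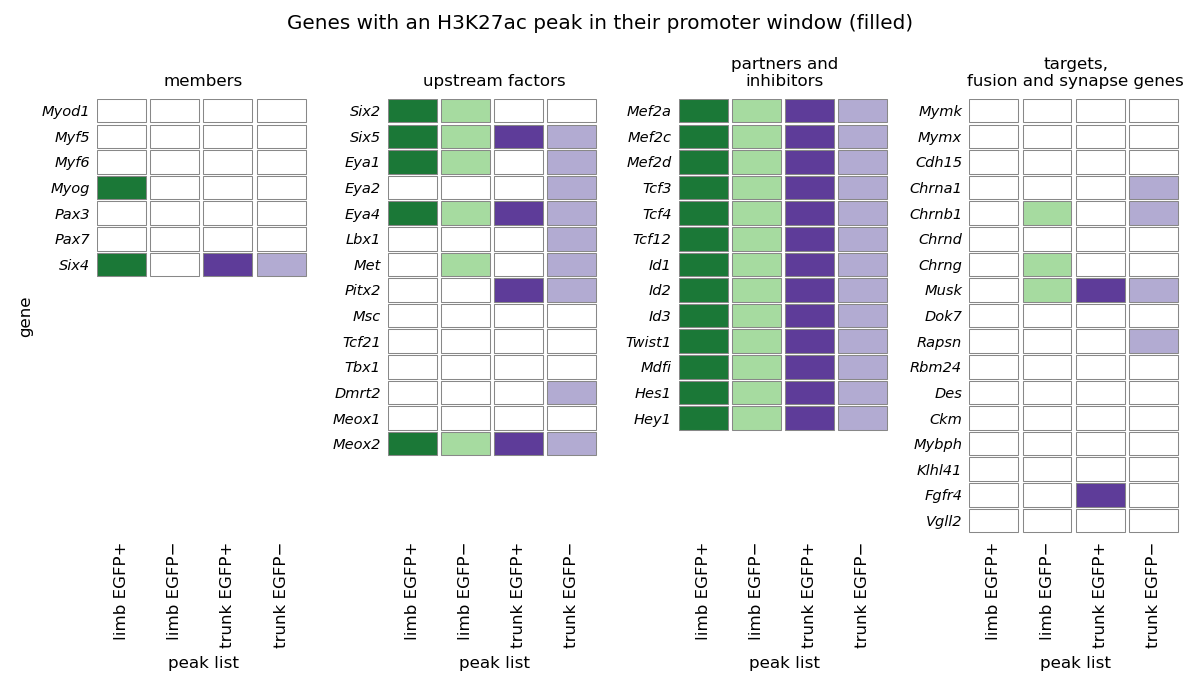
Promoter peaks of the 7 members and of the 3 lists of pathway genes, with 1 row per gene and 1 column per list; a filled square means at least 1 interval in the promoter window. All 13 partners and inhibitors are filled in every list, while 5 of the 7 members have an empty row.

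The genes whose peak pattern was most like a member's were found over 8 values, the distal count and the within-list percentile of the strongest promoter peak in each of the 4 lists, each scaled by its SD over all genes. Myf5 and Myf6 shared their pattern, 1 distal interval in limb EGFP+ cells, with 182 genes at a distance of 0, and Pax3 shared its own with 8 genes, Adgrg3 and Gpr158 first by name. Nearest to Myod1 were Ceacam1 and Fam170b, both at a distance of 0.302, each with 5 distal intervals in trunk EGFP- cells and 1 in limb EGFP- cells. Oxct2b matched Pax7 at a distance of 0, and BC051019 lay at 0.239. Myog was nearest to Pgpep1l (0.722) and Gprc5d (0.789), and Six4 to Phlda2 (0.692) and Ak1 (1.05). The sparse patterns of Myf5, Myf6 and Pax3 are therefore not particular to these genes.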

How the data were processed

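H3K27ac ChIP-seq peak lists of 4 libraries, 1 per population, were analysed. The submitters' processing notes name cutadapt 1.18, Bowtie2 2.3.5.1, SAMtools and MACS2 2.2.7.1, with GRCm39. The authors drew equal numbers of reads from each library and called peaks per library with reads extended to 200 bp. Neither a control library nor a q threshold is given in the sources used here. The deposited score is the −log10 q scaled up to a whole number, and the deposited fold is the ratio of summit pileup to local background of the same library with a pseudocount of 1. The deposited −log10 p and −log10 q were made by the authors' MACS2 run and served for ranking and for a stricter threshold. The labels give reads of unequal length and more than 1 sonicator without assigning them to libraries.

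Summits of 1 start and end were joined, and those outside chromosomes 1 to 19, X or Y were left out. Start sites and annotations came from GENCODE for GRCm39. Overlap meant at least 1 bp. Reads at a summit were solved from the fold and −log10 p, with a tolerance of 0.001 and a largest error of 0.00049, and their intervals cover counting error only. On simulated data, 2043 of 2043 regions and the reads of 1970 of 1970 summits were recovered. Python 3.11.15, pandas 2.3.3 and scipy 1.17.1 were used. For each member, its promoter intervals and up to 5 distal regions of highest −log10 p could be named, together with the listed pathway genes, and the 2 genes nearest in pattern, leaving out genes within 300 kb. The members and lists were chosen with earlier results of these data known. The alternatives were stricter peaks, other windows, no promoter filter, another overlap and no merging. Accessibility and coverage data were not used here. Of the listed genes, 2 are not reported here.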

Additional observations from a re-analysis of the deposited data

Results flagged for a closer look

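The EGFP+ and EGFP- fractions differed in opposite directions in limb and trunk for 3 counts, and with 1 library per population none of these differences was tested. Distal intervals near the members numbered 26 in limb EGFP+ and 22 in limb EGFP- cells, but 17 in trunk EGFP+ and 20 in trunk EGFP- cells. Regions found in 1 fraction of a tissue numbered 12 in EGFP+ and 9 in EGFP- cells of the limb, against 12 in EGFP+ and 13 in EGFP- cells of the trunk. Near Myog, the distal intervals numbered 9 in EGFP+ and 12 in EGFP- cells of the limb, against 5 and 4 in trunk.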

How the results depend on the processing

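No paired analysis was possible because each population had 1 library, and for the same reason no replicate could be left out. Of 72 values recomputed under other settings, 23 stayed within 1.5 times the reported value and 49 did not. Values below are in the order limb EGFP+, limb EGFP-, trunk EGFP+, trunk EGFP- unless another order is named, and regions of 1 fraction are in the order limb EGFP-, limb EGFP+, trunk EGFP-, trunk EGFP+. With −log10 q of at least 5, members with a promoter peak fell to 1 in limb EGFP+ and 0 in trunk EGFP- cells, the distal intervals to 11, 10, 5 and 2, and the regions of 1 fraction to 6 in limb EGFP+, 1 in trunk EGFP- and 4 in trunk EGFP+ cells. With the top 20000 intervals of each list, the promoter counts were 1 in limb EGFP+ and 0 in trunk EGFP- cells, the distal intervals 4, 4, 3 and 4, and the regions 3, 3, 3 and 2. With a fold of at least 4, the promoter counts were 0 in limb EGFP+ and in trunk EGFP- cells, the distal intervals 9, 8, 4 and 7, and the regions 4, 6, 6 and 3. A window of 50 kb gave 12, 7, 1 and 5 distal intervals and 4, 5, 4 and 1 regions, and one of 500 kb gave 109, 69, 89 and 73 distal intervals and 25, 57, 35 and 53 regions. Without the promoter filter the intervals were 40 in limb EGFP+ and 28 in trunk EGFP+ cells. With a promoter window of 2 kb on each side, chosen after seeing the data, the members marked were 1 in limb EGFP- and 2 in trunk EGFP- cells. An overlap of 50% and no merging kept every count of regions within 1.5 times. The order of the fractions in these counts therefore depends on the threshold and window, and the medians of 15.5 to 17.5 reads at the distal summits limit what 1 library shows.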
